A study of Homo sapiens with 24 samples.

Results

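The data described here are the levels of 8 cell death genes in HepG2 cells given BET inhibitors and interferon gamma (IFNg). They are the death receptors FAS and TNFRSF10B, the adaptor kinase RIPK1, the caspases CASP8, CASP1 and CASP4, and the executors MLKL and GSDMD. The 8 genes were chosen by symbol from the 26475 gene symbols counted, as necroptosis, caspase and death receptor genes. They were selected on the values of MLKL, which were higher with IFNg than with DMSO and lower with ABBV-075 than with DMSO. Those 2 contrasts are therefore given as a description, with no test, for all 8 genes, and MLKL was tested only between groups that the choice did not use. MLKL was lowest with ABBV-075, at a mean of 0.753 CPM (edgeR's read count scaled to library depth) against 7.15 in DMSO, and highest with IFNg alone, at 16.8. CASP1 was close to undetected in every group without IFNg and reached 6.08 to 8.36 CPM with IFNg, except with ABBV-075, where it stayed at 0.887. CASP4 was raised by IFNg under each inhibitor tested and was lower with ABBV-075 than with ABBV-744 at the same dose.

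A cell can be killed from within by several routes that share parts. In the extrinsic route of apoptosis, a ligand binds a death receptor such as FAS or the TRAIL receptor TNFRSF10B, an adaptor complex forms at the membrane, and caspase-8 is activated and cleaves the executioner caspases. Where caspase-8 is blocked, the kinases RIPK1 and RIPK3 can instead phosphorylate MLKL, which then permeabilizes the plasma membrane (necroptosis). In pyroptosis, the inflammatory caspases, caspase-1 in inflammasomes and caspase-4 after binding bacterial lipopolysaccharide, cleave gasdermin D, whose fragment forms pores. IFNg signals through JAK kinases and is known to raise the transcription of several of these genes. Hepatocytes express little RIPK3, and they are sensitive to FAS ligation.

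HepG2 is an established human hepatocellular carcinoma cell line, one line in all groups, so the values describe a single genetic background in culture. RNA was sequenced from 8 groups of 3 libraries. DMSO cells were the control. Inhibitor cells had ABBV-075 (50 nM) or ABBV-744 (50 nM or 500 nM), and the same 4 conditions were repeated with IFNg added. ABBV-075 inhibits both bromodomains of the BET proteins, which read acetylated histones, and ABBV-744 is selective for the second bromodomain. By the study's methods ABBV-075 was given for 12 h, and their wording puts the DMSO cells at 24 h. How long the remaining groups were treated, and how much IFNg they had, is not given in the sources used here, so time and treatment cannot be told apart. The labels do not say whether the 3 libraries of a group came from separate cultures, and p-values measure the spread between these libraries only.

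Each library had 2978982 to 4304103 reads assigned to genes, 12% to 16.8% of its reads, so a gene at 1 CPM had about 3 to 4 reads. The summed group means of 8 hepatocyte markers were 14718 to 18177 CPM. Those of 5 leukocyte markers were 9.40 to 25.4 CPM, of which CD68 took 8.70 to 21.3 and PTPRC, CD3E and MS4A1 had 0 counts. Those of 5 fibroblast markers were 1.63 to 6.71 CPM, with COL1A2, COL3A1 and DCN at 0 counts, and those of 4 endothelial markers 0.382 to 1.77 CPM, with KDR at 0 counts. IRF1, an interferon-induced transcription factor, was at group means of at most 17.0 CPM without IFNg and 207 to 229 with it. The libraries given ABBV-744 with IFNg stood apart from those given ABBV-744 alone in far more genes than the other IFNg contrasts did. Called genes (edgeR's quasi-likelihood test, Benjamini-Hochberg adjusted p at most 0.05) were 60.2% of those tested at 50 nM and 40.9% at 500 nM, against 3.46% for IFNg over DMSO and 1.05% for IFNg over ABBV-075. These contrasts also followed the base composition of the transcripts. In IFNg with ABBV-744 at 50 nM over ABBV-744 at 50 nM, genes with a transcript GC content under 40% had a median log2 fold change of 1.08, and genes over 60% had −0.49. For IFNg over DMSO the same medians were −0.11 and 0.08. Contrasts of inhibitors without IFNg held such a trend too. The medians were 0.80 and −0.35 for ABBV-075 against ABBV-744 at 50 nM and 0.47 and −0.11 for ABBV-075 over DMSO. They ran the other way, at −0.33 and 0.25, for ABBV-744 at 50 nM over DMSO. FAS has the lowest GC content of the 8 genes, 38%, and GSDMD has the highest, 64%, so the calls of members that a correction for GC content changed are given with and without it. Whether something other than IFNg differs between these libraries was not tested.

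Coordinates of 6 of the genes are given in GRCh38 (GENCODE 44). MLKL spans chr16:74671855-74700960, RIPK1 chr6:3063824-3115187, CASP8 chr2:201233443-201361836, FAS chr10:88953813-89029605, CASP4 chr11:104942866-104969366 and CASP1 chr11:105025397-105035250. FAS shares its strand with part of STAMBPL1, and CASP1 shares sequence with CARD16, so that reads of these pairs could have been split or left out in counting. CARD16 had at most 4 counts in any library. The counts used were of one strand, so RHOBTB2, which overlaps TNFRSF10B on the other strand, and ACTA2, which overlaps FAS there, were counted apart.

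Promoter windows, from 250 bases before a start site to 50 after it, were read from RefSeq (GRCh38.p14) for 5 of the 8 genes. No window was found there for CASP1, TNFRSF10B and GSDMD. Motifs of 2 kinds bound by interferon-activated factors were searched on both strands. They were the GAS element, TTCNNNGAA, and an ISRE-type repeat of 2 GAAA cores with 2 bases between them, bound by interferon regulatory factors. The GAS letters occurred in 7.66% of the 35116 windows of all genes and the repeat in 3.57%. Of the 11 windows of the 5 genes, 1 window of CASP8 held a GAS match, TTCCAAGAA, 200 bases before the start. The same CASP8 window held the repeat on the reverse strand, TTTCTGTTTC, 3 bases before the start, and RIPK1 held it on the reverse strand, TTTCGGTTTC, 67 bases before the start of one window and 183 before that of another, which overlaps it and holds the same bases. The windows of MLKL, CASP4 and FAS had neither set of letters. Stretches before a RefSeq start site, outside annotated exons, are shown for MLKL and CASP4, both higher with IFNg, and for CASP8. They run 5′ to 3′ on the strand of the gene, with the GAS match in capitals. The CASP4 stretch lies within the span of its gene given above, and those of MLKL and CASP8 lie outside theirs.
MLKL, chr16:74700961-74701112, minus strand: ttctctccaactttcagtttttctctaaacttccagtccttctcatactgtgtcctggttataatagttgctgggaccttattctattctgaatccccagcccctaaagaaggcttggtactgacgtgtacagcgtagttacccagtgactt
CASP4, chr11:104968729-104968824, minus strand: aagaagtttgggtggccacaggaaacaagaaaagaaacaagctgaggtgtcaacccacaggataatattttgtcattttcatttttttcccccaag
CASP8, chr2:201233213-201233442, plus strand: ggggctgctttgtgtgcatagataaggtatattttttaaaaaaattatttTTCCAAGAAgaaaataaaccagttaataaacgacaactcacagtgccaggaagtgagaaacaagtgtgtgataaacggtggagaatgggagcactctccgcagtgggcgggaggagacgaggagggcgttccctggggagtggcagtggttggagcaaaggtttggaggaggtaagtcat

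FAS is the receptor of FAS ligand. Its levels were 16.1, 15.8 and 15.98 CPM in the DMSO libraries and 7.72, 8.04 and 5.11 CPM with ABBV-075. They were 12.8, 11.9 and 14.0 CPM with ABBV-744 at 50 nM and 12.8, 7.69 and 7.48 CPM at 500 nM. Every inhibitor library was below the lowest DMSO library, and one of the 500 nM libraries lay with those of 50 nM. IFNg alone gave 20.2, 14.5 and 15.9 CPM, which overlapped DMSO, and IFNg with ABBV-075 gave 9.94, 10.9 and 4.82 CPM. IFNg with ABBV-744 gave 26.8, 25.7 and 27.1 CPM at 50 nM, the highest of all 8 groups, and 15.6, 15.1 and 15.7 CPM at 500 nM. ABBV-744 at 500 nM lowered FAS against DMSO by edgeR (log2 fold change −0.76, SE 0.22, adjusted p = 0.0159, and −0.60 with the GC correction, adjusted p = 0.0351), a call that was lost without DMSO replicate 2 or 3 (−0.76 in each) or ABBV-744 500 nM replicate 3 (−0.62). Among cells given IFNg, ABBV-075 lowered it (−0.97, SE 0.24, adjusted p = 0.000615). ABBV-744 at 50 nM raised it (0.67, SE 0.16, adjusted p = 0.00078), and with the GC correction this value turned to −0.13 (adjusted p = 0.545). At 500 nM the value over IFNg was −0.14 (adjusted p = 0.579) and −0.78 with the correction (adjusted p = 0.00103). The rise of FAS from ABBV-744 alone to ABBV-744 with IFNg was 1.04 (SE 0.16, adjusted p = 2.54e-05) at 50 nM and 0.72 (SE 0.23, adjusted p = 0.0177) at 500 nM. With the GC correction these were 0.02 (adjusted p = 0.953) and −0.0038 (adjusted p = 0.992), and the second was also lost without ABBV-744 500 nM replicate 3 (0.58). The difference of IFNg with ABBV-075 from IFNg alone was −1.57 after the correction (adjusted p = 1.42e-08).

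TNFRSF10B, also called DR5, is the receptor of the death ligand TRAIL, and its gene is on chromosome 8. Its group means were 61.0 to 92.7 CPM. The DMSO libraries were at 77.5, 76.4 and 70.4 CPM, and the ABBV-075 libraries at 67.6, 83.0 and 77.3 CPM. With ABBV-744 it was at 82.6, 93.6 and 102 CPM at 50 nM and at 80.8, 93.2 and 76.8 CPM at 500 nM. The DMSO and ABBV-075 groups overlapped, and all 3 libraries of ABBV-744 at 50 nM lay above DMSO. With IFNg, all libraries but 1 were between 58.9 and 72.3 CPM, the exception being 83.6 in an IFNg library. The log2 fold change of ABBV-744 at 50 nM over DMSO was 0.32 (SE 0.11, adjusted p = 0.0406), and the call was lost without any 1 of the DMSO libraries or ABBV-744 50 nM replicate 3 (0.25 to 0.34) and with the GC correction (0.26, adjusted p = 0.0604). IFNg lowered TNFRSF10B under ABBV-744 at 50 nM (−0.53, SE 0.11, adjusted p = 0.000579) and at 500 nM (−0.45, SE 0.12, adjusted p = 0.0045). With the GC correction the first stayed past the threshold (−0.31, adjusted p = 0.0161) and the second did not (−0.22, adjusted p = 0.0847). For IFNg over ABBV-075 the value was −0.12, with a 95% interval from −0.43 to 0.20.

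RIPK1 is the kinase and scaffold that lies at the branch between survival, apoptosis and necroptosis downstream of death receptors. It had 26.0, 25.3 and 30.05 CPM in DMSO and 27.8, 24.8 and 35.5 CPM with IFNg. With IFNg and ABBV-075 it had 43.8, 41.3 and 41.9 CPM, with IFNg and ABBV-744 at 50 nM 44.6, 42.4 and 38.1 CPM, and at 500 nM 39.0, 38.6 and 37.5 CPM. All 9 libraries given IFNg with an inhibitor were above the highest library given IFNg alone. RIPK1 rose over IFNg alone with ABBV-075 (0.52, SE 0.14, adjusted p = 0.00248), with ABBV-744 at 50 nM (0.53, SE 0.14, adjusted p = 0.00148) and with ABBV-744 at 500 nM (0.37, SE 0.14, adjusted p = 0.0371). The last of these was lost without replicate 1 or 2 of IFNg (0.33 and 0.26) or of IFNg with ABBV-744 500 nM (0.37 in each). After the GC correction the 3 values were 0.75, 0.68 and 0.58, all past the threshold. Without IFNg, ABBV-075 gave 36.4, 42.5 and 33.4 CPM, above DMSO by 0.44 on the log2 scale (SE 0.15, no test), while neither dose of ABBV-744 changed the level by the test (0.14 and 0.17, adjusted p = 0.535 and 0.465). IFNg over ABBV-744 at 500 nM gave 0.33 (adjusted p = 0.0608), and 0.54 with the GC correction (adjusted p = 0.00121).

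CASP8 encodes the initiator caspase of the death receptor route, which also restrains necroptosis by cleaving RIPK1. It was at 39.7, 33.5 and 32.4 CPM in DMSO and at 21.5, 19.2 and 22.3 CPM with ABBV-075, and these groups did not overlap. IFNg alone gave 41.2, 39.3 and 36.9 CPM, and IFNg with ABBV-075 gave 32.3, 31.0 and 31.0 CPM. With ABBV-744 at 50 nM the libraries had 27.1, 33.3 and 22.9 CPM, and with IFNg in addition 38.3, 34.8 and 40.9 CPM. At 500 nM they had 27.3, 31.4 and 28.2 CPM, and with IFNg 43.3, 37.7 and 41.8 CPM. In each inhibitor background the IFNg libraries were therefore above those without IFNg, with no overlap. Under ABBV-744 the difference passed the test at 50 nM (0.46, SE 0.15, adjusted p = 0.0134) and at 500 nM (0.49, SE 0.14, adjusted p = 0.00783). With the GC correction the values were −0.08 (adjusted p = 0.742) and 0.16 (adjusted p = 0.392), and the first call was also lost without replicate 3 of ABBV-744 50 nM (0.34) or of IFNg with ABBV-744 50 nM (0.40). Under ABBV-075 the value was 0.61 (SE 0.16, adjusted p = 0.141), and it passed with the correction (0.62, adjusted p = 0.0311) or without ABBV-075 replicate 3 (0.66). ABBV-744 at 50 nM over DMSO gave −0.32 (adjusted p = 0.143), called without ABBV-744 50 nM replicate 2 (−0.48), and over IFNg −0.02 (adjusted p = 0.897), called with the correction (−0.42, adjusted p = 0.00516). The lower CASP8 in IFNg with ABBV-075 than in IFNg was −0.32 (SE 0.14, adjusted p = 0.0447), lost without any 1 of 5 of the 6 libraries (−0.29 to −0.33, IFNg replicate 3 being the exception) or with RLE scaling, library size only, no filter or DESeq2 (−0.31 in each), and −0.56 with the correction (adjusted p = 7.05e-05).

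CASP1 encodes the caspase of canonical inflammasomes, which matures interleukin-1 beta and interleukin-18. Without IFNg it had 3, 2 and 1 counts in the DMSO libraries, 1, 0 and 0 with ABBV-075, 0, 2 and 0 with ABBV-744 at 50 nM and 2, 0 and 1 at 500 nM. All 12 libraries were at or under 3 counts, so no difference among these 4 groups could be read at this depth. IFNg alone gave 28, 27 and 32 counts, IFNg with ABBV-744 at 50 nM gave 39, 31 and 25, and at 500 nM 22, 15 and 21. IFNg with ABBV-075 gave 5, 3 and 2 counts, below every other library given IFNg. The ratio of IFNg over DMSO by summed counts and depth was 17.0, given with no interval, since that contrast chose the genes. Under ABBV-744 the ratio was 40.7 (exact 95% counting interval 10.96 to 341) at 50 nM and 20.2 (6.56 to 101) at 500 nM. Under ABBV-075 it was 9.94 (1.41 to 431), resting on 1 count in the lower group. These intervals cover counting error only. IFNg alone exceeded IFNg with ABBV-075 by a ratio of 9.02 (4.68 to 19.5). In these contrasts CASP1 met the filter on low counts only through the group where it was high, so they are given as ratios, with no p. ABBV-744 at 500 nM over IFNg gave −0.45 (adjusted p = 0.178), and −0.80 with the GC correction (adjusted p = 0.0182).

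CASP4 encodes a human sensor of cytosolic lipopolysaccharide, which acts without a canonical inflammasome. Its levels were 31.1, 35.7 and 34.3 CPM in DMSO and 84.6, 68.8 and 69.1 CPM with IFNg. With ABBV-075 they were 10.1, 12.9 and 11.1 CPM, and with IFNg in addition 27.1, 33.2 and 30.7 CPM, so that the cells given both overlapped the DMSO libraries. With ABBV-744 at 50 nM the libraries had 28.6, 21.7 and 30.2 CPM, and with IFNg 70.9, 73.5 and 70.7 CPM. At 500 nM they had 24.7, 26.3 and 23.0 CPM, and with IFNg 63.3, 65.0 and 56.6 CPM. The rise with IFNg was of like size in all backgrounds. It was 1.44 under ABBV-075 (SE 0.19, adjusted p = 0.000981), 1.42 under ABBV-744 at 50 nM (SE 0.13, adjusted p = 8.11e-08) and 1.32 at 500 nM (SE 0.14, adjusted p = 2.08e-07), beside 1.13 (SE 0.12) over DMSO. The change in this rise with an inhibitor did not pass the test, at 0.28 for ABBV-075 (95% interval −0.17 to 0.72), 0.26 for ABBV-744 at 50 nM (−0.11 to 0.63) and 0.19 at 500 nM (−0.18 to 0.55). ABBV-075 lowered CASP4 among cells given IFNg by −1.30 (SE 0.13, adjusted p = 1.17e-10). ABBV-744 at 500 nM lowered it by −0.45 over DMSO (SE 0.15, adjusted p = 0.0342) and by −0.28 over IFNg (SE 0.12, adjusted p = 0.0472). Both of these weaker calls were lost when single libraries were left out. The first went without DMSO replicate 2 or 3 or ABBV-744 500 nM replicate 1 or 3 (−0.40 to −0.45), the second without IFNg replicate 1 or any 1 of the IFNg with ABBV-744 500 nM libraries (−0.17 to −0.32), and the second also with the GC correction (−0.24, adjusted p = 0.0504).

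MLKL encodes the executor of necroptosis. Its levels were 8.58, 6.66 and 6.20 CPM in DMSO, from 32, 30 and 26 counts, and 0.483, 0.574 and 1.20 CPM with ABBV-075, from 2, 2 and 4 counts. IFNg gave 16.4, 16.8 and 17.1 CPM. These 3 groups, which chose the genes, did not overlap, and the log2 fold changes were 1.23 for IFNg (SE 0.21) and −3.25 for ABBV-075 (SE 0.40) over DMSO. By summed counts and depth, DMSO exceeded ABBV-075 by a ratio of 9.69, from 88 against 8 counts. This ratio is a description with no interval, since these groups chose the genes. With IFNg and ABBV-075 the libraries had 0.497, 1.63 and 3.01 CPM, from 2, 6 and 10 counts, below all IFNg libraries, and the value over IFNg moved from −3.33 to −2.84 without replicate 1 and to −3.98 without replicate 3 of that group.

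In ABBV-744 at 50 nM, MLKL was at 2.68, 3.46 and 5.08 CPM, and at 500 nM at 2.91, 2.24 and 2.59 CPM. With IFNg in addition it was at 7.96, 9.04 and 6.35 CPM at 50 nM and at 7.66, 5.04 and 7.69 CPM at 500 nM. The groups with and without IFNg did not overlap at 50 nM or at 500 nM. MLKL was higher with IFNg under ABBV-744 at 50 nM (1.06, SE 0.30) and at 500 nM (1.37, SE 0.34). With the GC correction the values were 1.27 and 1.59. No p is given, since a rise with IFNg was part of the choice. The groups without IFNg also had few counts, 9 to 16 per library at 50 nM and 7 to 10 at 500 nM. ABBV-744 was below its control in each case, by −0.91 (SE 0.31) at 50 nM and −1.44 (SE 0.33) at 500 nM over DMSO, and by −1.08 (SE 0.21) and −1.32 (SE 0.23) over IFNg. These have no test, since DMSO and IFNg were used to choose the genes. Ordered by mean, MLKL went from IFNg (16.8 ± 0.352 CPM, SD, n = 3) to IFNg with ABBV-744 at 50 nM (7.78 ± 1.35), DMSO (7.15 ± 1.26), IFNg with ABBV-744 at 500 nM (6.80 ± 1.52), ABBV-744 at 50 nM (3.74 ± 1.22), ABBV-744 at 500 nM (2.58 ± 0.333), IFNg with ABBV-075 (1.71 ± 1.26) and ABBV-075 (0.753 ± 0.392). IFNg alone stood clear of the group next to it in this order, and the libraries of every other neighbouring pair overlapped.

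GSDMD, on chromosome 8, encodes gasdermin D, the pore former cut by caspase-1 and caspase-4. The DMSO libraries had 6.70, 5.55 and 7.39 CPM and the ABBV-075 libraries 10.6, 10.3 and 12.6 CPM, a difference of 0.75 (SE 0.23, no test). IFNg gave 8.18, 13.3 and 15.4 CPM, and IFNg with ABBV-075 gave 14.9, 16.05 and 21.7 CPM, the highest group mean. Unlike MLKL and CASP4, GSDMD was thus higher with ABBV-075 than with its control in both settings. Over IFNg the value was 0.50 (SE 0.22, adjusted p = 0.0495). This call was lost without replicate 1 or 2 of IFNg (0.27 and 0.56) or replicate 2 or 3 of IFNg with ABBV-075 (0.55 and 0.33) or with DESeq2 (0.52), and the value was 0.58 with the GC correction (adjusted p = 0.00906). With ABBV-744 at 50 nM GSDMD was at 6.26, 10.7 and 7.94 CPM, and with IFNg at 9.88, 10.2 and 13.8 CPM, groups that overlapped. At 500 nM it was at 9.01, 9.61 and 8.34 CPM, and with IFNg at 13.3, 15.1 and 13.8 CPM, groups that did not. The IFNg difference passed the test at 500 nM (0.65, SE 0.21, adjusted p = 0.0197) and not at 50 nM (0.45, SE 0.24, adjusted p = 0.119). The first was lost without ABBV-744 500 nM replicate 3 (0.60) or replicate 2 of IFNg with ABBV-744 500 nM (0.59). With the GC correction both passed, at 0.85 (adjusted p = 0.00249) and 0.92 (adjusted p = 0.00323), and at 50 nM the call was also made without ABBV-744 50 nM replicate 2 (0.70).

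**Figure D1:**
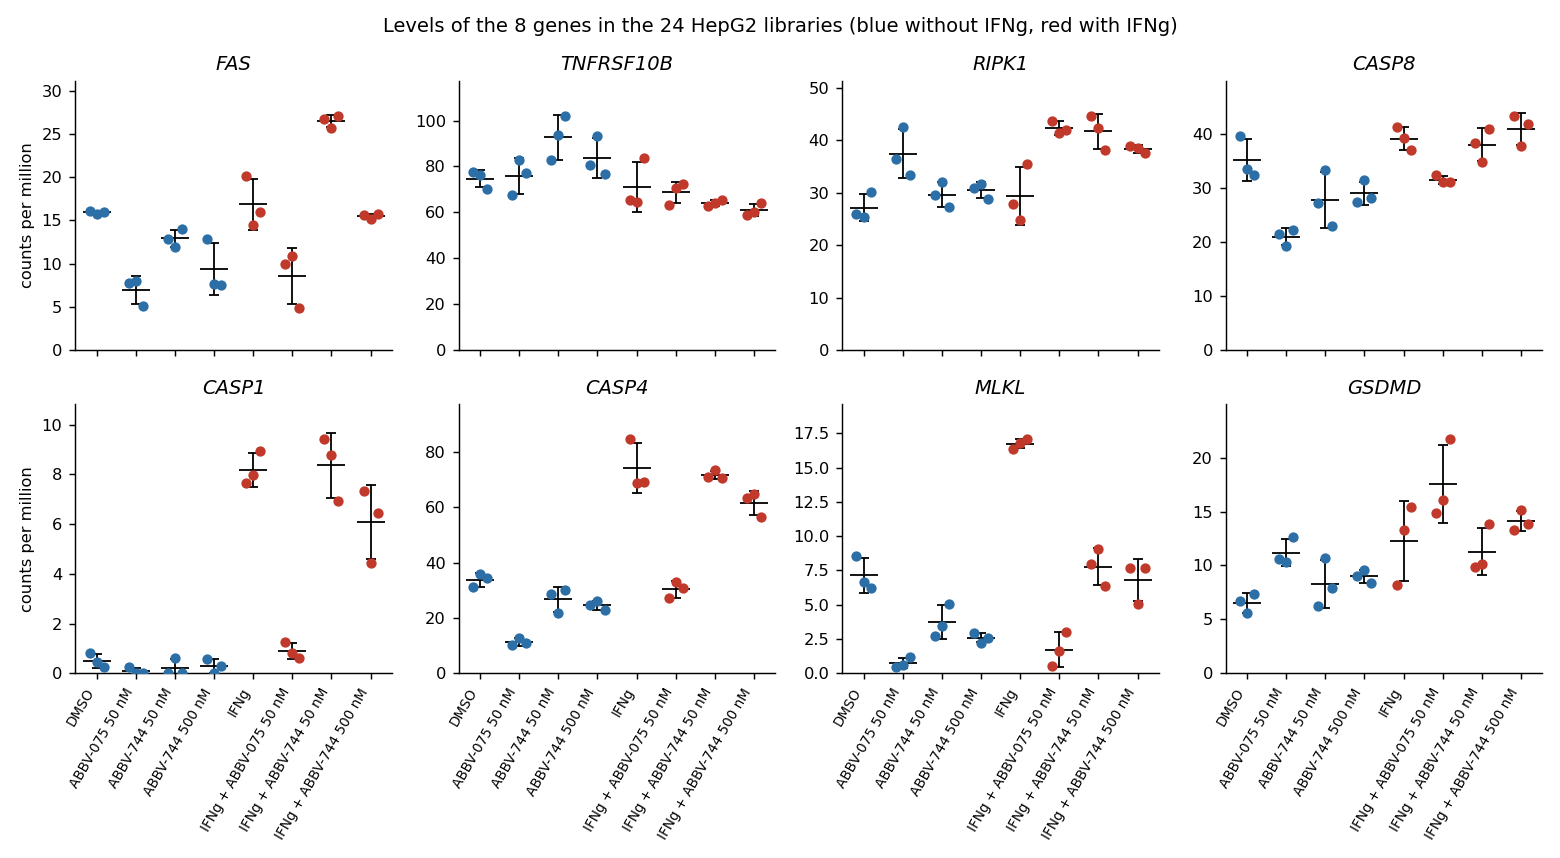
Level in CPM (vertical axis) of the 8 genes in each library (points), with the mean and SD of each group of 3 (bars), blue without and red with IFNg. MLKL stands at 16.4 to 17.1 CPM in the IFNg libraries and at 0.483 to 1.20 with ABBV-075, while CASP1 is near 0 in all groups without IFNg and in IFNg with ABBV-075.

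The first question the design asks of these genes is how each responds to IFNg in each inhibitor background. For IFNg over DMSO, the contrast that chose the genes, the log2 fold changes were 3.99 for CASP1, 1.23 for MLKL, 1.13 for CASP4, 0.90 for GSDMD, 0.15 for CASP8, 0.12 for RIPK1, 0.08 for FAS and −0.07 for TNFRSF10B. In that contrast 2.76% of all genes tested were called higher and 0.695% lower. Under ABBV-075, 1 of 6 members tested rose, CASP4, and none fell, where 1.01% of all genes rose and 0.0365% fell. At an unadjusted p under 0.05 the number was 3, and MLKL and CASP1 were too low to be tested. CASP1 and MLKL, which had few counts in the lower group of several contrasts, are left out of the next 2 counts. Under ABBV-744 at 50 nM, 4 of the other 6 members rose (FAS, CASP4, CASP8 and RIPK1, the last by 0.50 with adjusted p = 0.00346) and TNFRSF10B fell. The background was high, since 30.4% of all genes rose and 29.8% fell. Under ABBV-744 at 500 nM, 4 of the same 6 rose (FAS, CASP4, CASP8 and GSDMD) and TNFRSF10B fell, where 22.6% of all genes rose and 18.3% fell. With the GC correction, the calls of FAS and CASP8 were lost at both doses, as was that of TNFRSF10B at 500 nM, and that of CASP4 stayed past the threshold at both.

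**Figure D2:**
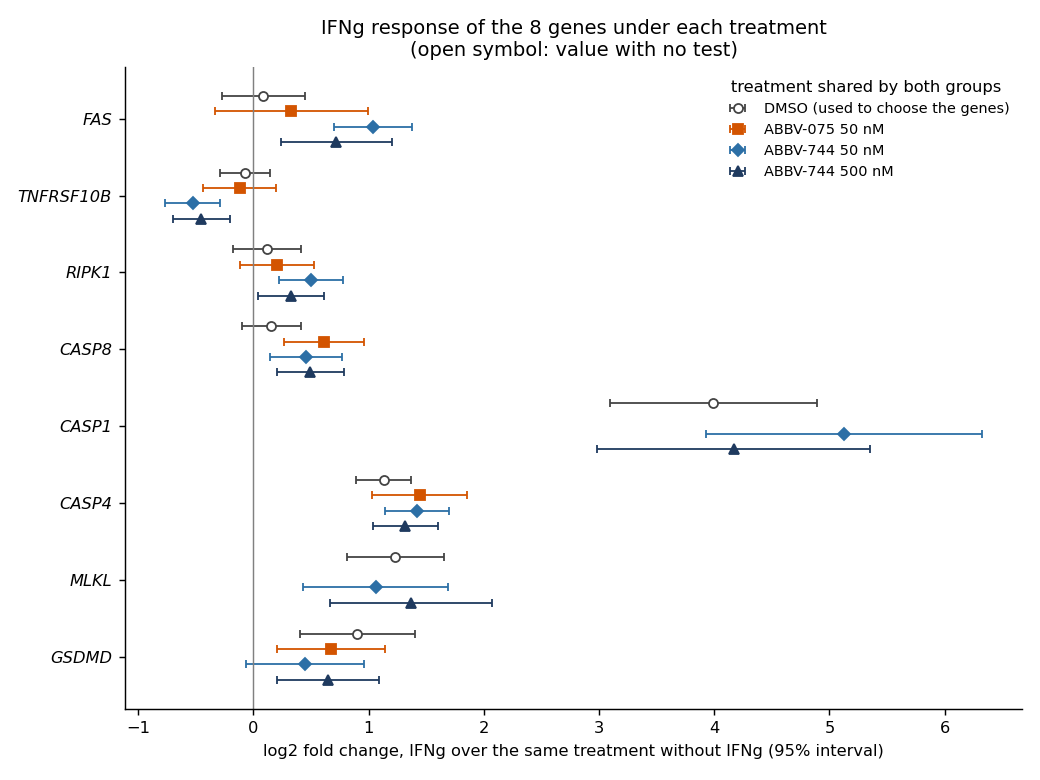
Log2 fold change of IFNg over the same treatment without IFNg, with 95% intervals, for the 8 genes in 4 backgrounds, where open symbols have no test, MLKL and CASP1 are not shown under ABBV-075, and fitted values of CASP1 rest on a group at 0 to 3 counts. Symbols of CASP1 and MLKL are fitted values with no p given, also where they are filled. The values of all genes but TNFRSF10B lie above 0 in every background shown, with CASP4 between 1.13 and 1.44. The intervals of FAS, RIPK1, CASP8 and GSDMD cross 0 in some backgrounds.

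The difference between IFNg responses was itself tested, as the interaction of inhibitor and IFNg. With ABBV-075, none of 7 members passed, 1 (CASP8) had an unadjusted p under 0.05, and DESeq2 called none. The 7 members of each interaction include CASP1, which had 0 to 3 counts in every library without IFNg. Its 95% interval with ABBV-075 ran from −5.70 to 3.54, so its lack of a call says nothing about its response. Over all genes 0.0173% were called in each direction, so this contrast called next to nothing. For ABBV-744 at 50 nM the response of FAS was larger than over DMSO by 0.93 (SE 0.23, adjusted p = 0.00163) and that of TNFRSF10B lower by −0.48 (SE 0.16, adjusted p = 0.0113), which makes 1 member called in each direction of 7 tested. All genes were called higher in 25% and lower in 26.5% of cases. FAS had −0.16 (adjusted p = 0.695) with the GC correction, and TNFRSF10B had −0.21 (adjusted p = 0.319), as well as −0.35 without IFNg replicate 3, no longer called. RIPK1, at 0.36 (adjusted p = 0.135), was called without that library (0.51) and with the correction (0.58, adjusted p = 0.0244). For ABBV-744 at 500 nM none of 7 members was called by edgeR or by DESeq2, 2 (FAS at 0.64 and TNFRSF10B at −0.38) had an unadjusted p under 0.05, and 18.5% and 15% of all genes were called higher and lower. Without ABBV-744 500 nM replicate 1 FAS was called (0.98), and without IFNg replicate 1 both genes were (0.79 and −0.44). MLKL, with no test here, had differences in response of −0.11 with ABBV-075 (SE 0.99), −0.20 with ABBV-744 at 50 nM (SE 0.37) and 0.14 at 500 nM (SE 0.38). The first of these moved to 0.35 without ABBV-075 replicate 3, to 0.37 without IFNg with ABBV-075 replicate 1 and to −0.75 without its replicate 3.

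**Figure D3:**
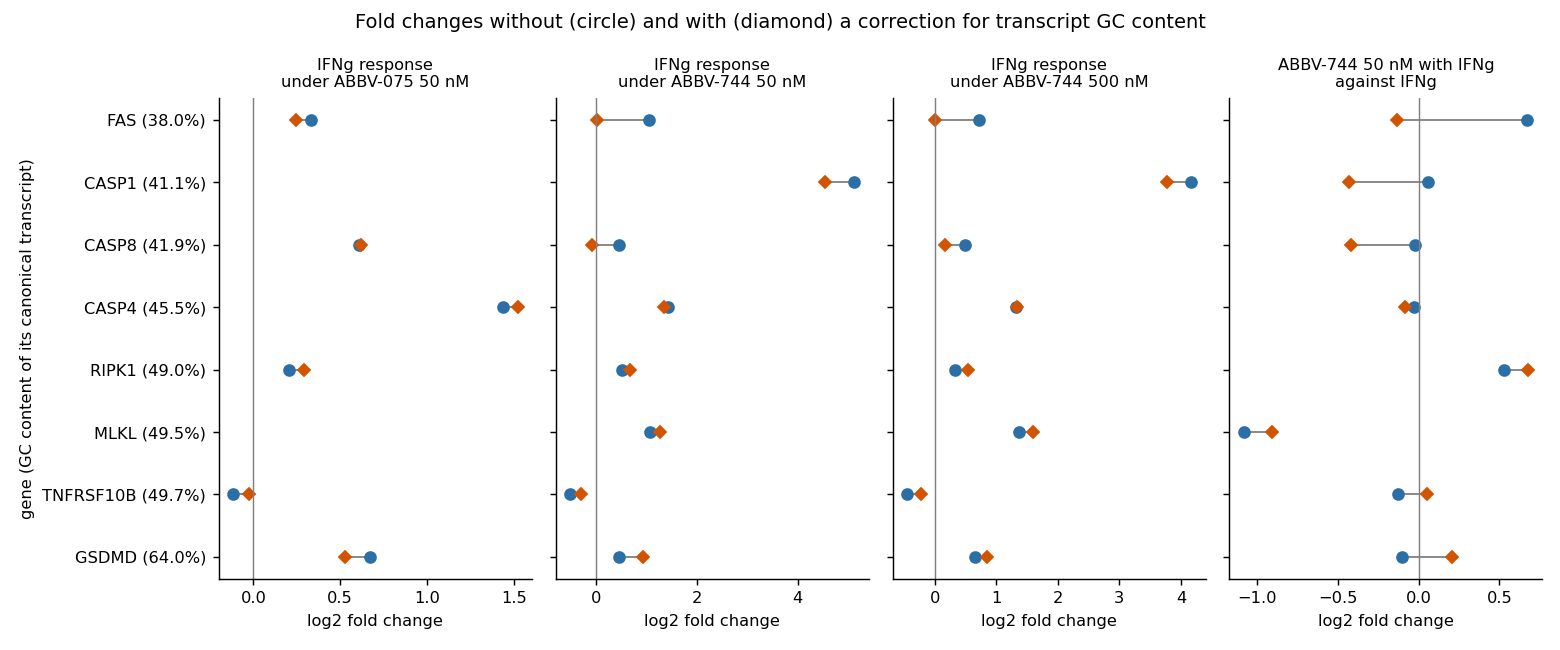
Log2 fold change of each gene in 4 contrasts without (circle) and with (diamond) a correction for the GC content of its canonical transcript, on an x axis scaled to each contrast, with genes in order of GC content from 38% to 64%. FAS moves from 1.04 to 0.02 under ABBV-744 at 50 nM, while MLKL and CASP4 move little.

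The second question is what each inhibitor did against its own control. For ABBV-075 over DMSO, which chose the genes, the values were −3.25 for MLKL, −1.59 for CASP4, −1.21 for FAS, −0.76 for CASP8, 0.75 for GSDMD, 0.44 for RIPK1 and −0.0003 for TNFRSF10B, and CASP1 was too low to test. FAS had −1.64, CASP8 −0.94 and TNFRSF10B 0.13 with the GC correction. Of all genes 19.8% were called higher and 19.6% lower there. Over IFNg, ABBV-075 raised 2 of the 6 members other than CASP1 and MLKL (RIPK1 and GSDMD) and lowered 3 (FAS, CASP4 and CASP8), leaving TNFRSF10B at −0.06 (95% interval −0.30 to 0.19). Of all genes 28.2% rose and 28.4% fell. ABBV-744 at 50 nM raised 1 of 6 members over DMSO (TNFRSF10B) and lowered none, with 8.81% of all genes raised and 10.1% lowered. Over IFNg it raised 2 of 7 (FAS and RIPK1) and lowered none, with 27.4% and 24.3% of all genes. ABBV-744 at 500 nM lowered 2 of 6 members over DMSO (FAS and CASP4) and raised none, with 7.48% of all genes raised and 7.8% lowered. Over IFNg it raised RIPK1 and lowered CASP4 of 7 tested, with 22.9% and 22.8% of all genes. DESeq2 called none of the members for either dose over DMSO and none at 500 nM over IFNg. The contrasts over DMSO share the DMSO libraries, and those over IFNg share the IFNg libraries.

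**Figure D4:**
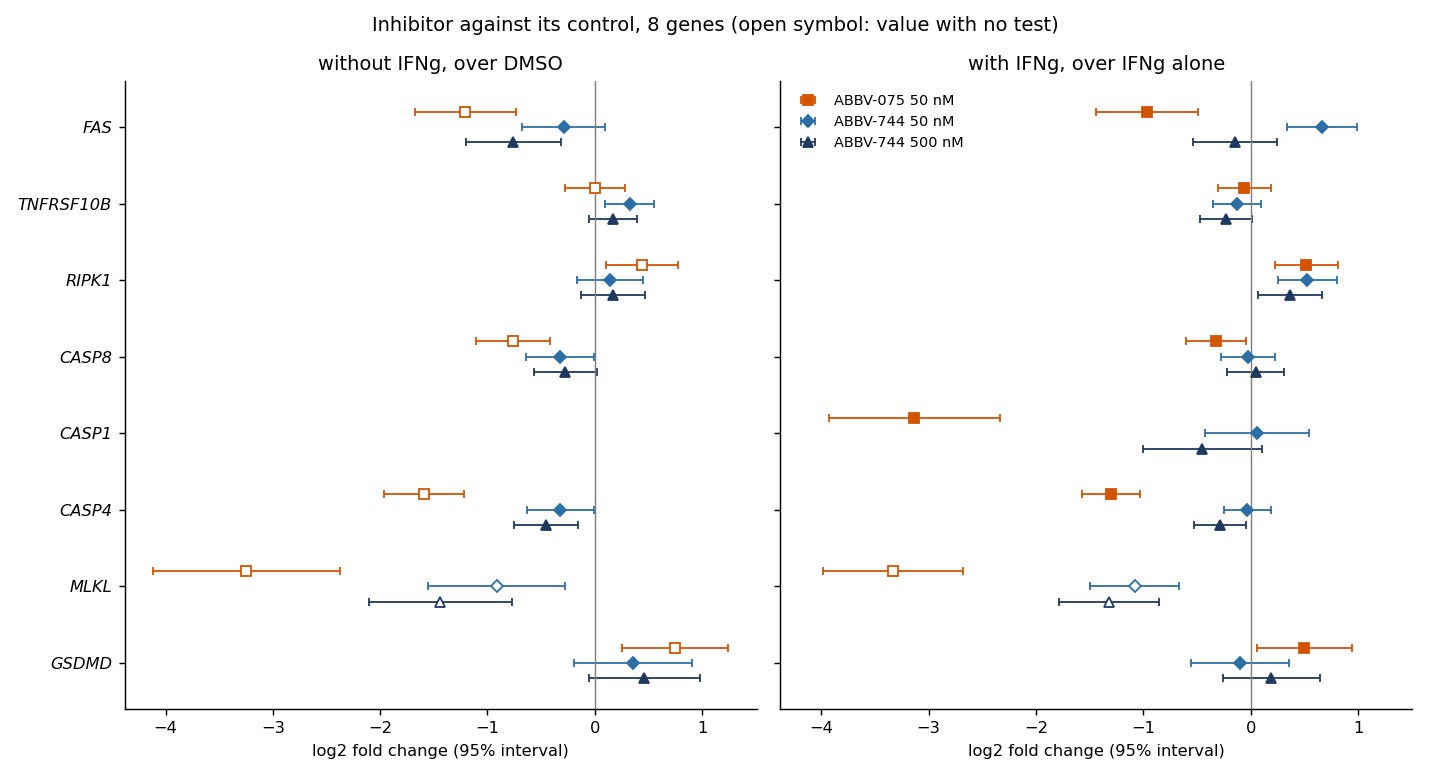
Log2 fold change with 95% interval of each inhibitor over DMSO (left) and, among cells given IFNg, over IFNg alone (right), where open symbols have no test. ABBV-075 has the lowest value of the 3 treatments for FAS, CASP8, CASP4 and MLKL in both panels, and MLKL lies below 0 with all 3.

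The compounds were compared directly at the matched dose of 50 nM, although it is not known that the times matched. Without IFNg, ABBV-075 was below ABBV-744 for FAS (−0.89, SE 0.24, adjusted p = 0.0138) and CASP4 (−1.25, SE 0.20, adjusted p = 0.00182), 2 of 6 members tested, and above it for none. All genes were called higher in 21.4% and lower in 19.4% of cases. CASP8 (−0.41, 95% interval −0.82 to −0.01), RIPK1 (0.33, −0.03 to 0.68), TNFRSF10B (−0.30, −0.61 to 0.01) and GSDMD (0.42, −0.13 to 0.97) did not pass the test, and with the GC correction CASP8 (−0.82), RIPK1 (0.48) and GSDMD (0.78) did, making 5 of 6. The FAS call was lost without ABBV-744 50 nM replicate 3 (−0.83). MLKL, given side by side with no test, was at 0.753 CPM with ABBV-075 and 3.74 with ABBV-744.

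With IFNg, ABBV-075 was below ABBV-744 for FAS and CASP4 of the 6 members other than CASP1 and MLKL and above it for GSDMD, where 16.7% of all genes were higher and 17% lower. MLKL was lower by −2.18 (SE 0.38), given with no p, since a fall with ABBV-075 was part of the choice. With 2 to 10 counts per library with ABBV-075, it also met the filter on low counts only through the ABBV-744 group. The value was −1.68 without replicate 1 of IFNg with ABBV-075 and −2.83 without its replicate 3. By summed counts and depth ABBV-744 exceeded ABBV-075 by a ratio of 4.76. CASP1 had 10 counts with ABBV-075 and 95 with ABBV-744. FAS differed by −1.56 (SE 0.20, adjusted p = 2.99e-08) and CASP4 by −1.19 (SE 0.12, adjusted p = 6.51e-11). GSDMD was higher with ABBV-075, by 0.68 (SE 0.20, adjusted p = 0.00739), a call lost without IFNg with ABBV-075 replicate 3 (0.50) or IFNg with ABBV-744 50 nM replicate 1 (0.58), with DESeq2 (0.69) and with the GC correction (0.38, adjusted p = 0.108). With the correction FAS (−1.43) and CASP4 (−1.13) stayed past the threshold, and the value of MLKL was −2.17. RIPK1 (0.07, 95% interval −0.18 to 0.31) and TNFRSF10B (0.15, −0.07 to 0.36) did not pass the test, and CASP8 (−0.22, −0.49 to 0.04) was not called. HEXIM1, which BET inhibitors are known to raise, was at 145 CPM with ABBV-075 and 65.1 with ABBV-744 at 50 nM, beside 53.8 in DMSO, and at 135 and 49.5 with IFNg, beside 47.3 in IFNg alone. With ABBV-744 at 500 nM it was at 89.5, and at 71.5 with IFNg. SERPINI1, also picked to check BET inhibition, had 4.47 CPM in DMSO and 19.8 with ABBV-075. With ABBV-744 it had 4.39 at 50 nM and 6.71 at 500 nM. With IFNg the same groups had 3.01, 20.5, 10.3 and 11.3.

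Raising ABBV-744 from 50 to 500 nM changed few genes in the main fit, which has no replicate block. Without IFNg, adding that block took the genes called from 3 to 320. Without IFNg none of the 7 members tested was called by edgeR, none had an unadjusted p under 0.05, and DESeq2 called none. Of all genes 0% were called higher and 0.0274% lower. MLKL had −0.52, with a 95% interval from −1.34 to 0.30, and FAS had −0.47 (−0.98 to 0.05). With IFNg, FAS was lower at 500 nM by −0.75 (SE 0.16, adjusted p = 0.00634), the 1 call among 8 members, where 1.41% of all genes were higher and 0.29% lower. It was −0.64 with the GC correction (adjusted p = 0.0256), and it was not called without IFNg with ABBV-744 500 nM replicate 2 (−0.73). MLKL did not differ by the test in that contrast (−0.17, 95% interval −0.71 to 0.37).

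The other 53 genes of a list of death receptors, ligands, adaptors, caspases, their inhibitors, gasdermins, inflammasome and apoptosome genes give the setting of the 8. Of these, 20 had at most 3 counts in every library, and 7 had none in any. RIPK3, the kinase that phosphorylates MLKL, had 1 count in all 24 libraries together, and ZBP1, another activator of necroptosis, had 3. CASP5 had 0 counts. Of the 9 inflammasome genes of the list, NLRP3 and IL1B had 0 counts over the 24 libraries, AIM2 had 1, MEFV 2 and NLRC4 5. The sensors NLRP1 and NAIP had 46 and 182, the caspase-1 substrate IL18 had 86, and the adaptor PYCARD had 323. In bulk RNA, fewer cells expressing a gene and less RNA per cell cannot be told apart.

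IFNg over DMSO raised 3 of the 28 other list genes tested and lowered 1, where 2.76% of all genes rose and 0.695% fell. The list genes called were GSDMB, a further gasdermin (2.92, SE 0.39), TNFSF10, which encodes TRAIL (1.10, SE 0.26, adjusted p = 0.00697), TNFRSF21 (0.47) and, lower, the decoy TRAIL receptor TNFRSF10D (−0.81). No p is given for GSDMB. It had at most 28 counts in any library, so at that fold change few were in DMSO. It could meet the filter on low counts only through the IFNg libraries. Under ABBV-075, where 1.01% of all genes rose and 0.0365% fell, TNFSF10 was the 1 of 26 that passed (2.65, SE 0.36). The number was 2 without ABBV-075 replicate 1 or 3 or with the GC correction. No p is given for TNFSF10 there. It had 3 to 6 counts per library with ABBV-075 and 22 to 30 with IFNg added, so it met the filter on low counts only through the higher group. TNFSF10 had a mean of 4.84 CPM in DMSO, 1.07 with ABBV-075 and 2.17 with ABBV-744 at 50 nM, and of 10.6, 6.92 and 16.4 with IFNg added to each. It rose with IFNg under ABBV-744 at 50 nM (2.90, SE 0.26) and at 500 nM (2.41, SE 0.33). In those last contrasts 9 of 28 list genes rose and 7 fell at 50 nM, beside 30.4% and 29.8% of all genes. At 500 nM 7 of 27 rose and 5 fell, beside 22.6% and 18.3% of all genes. After the GC correction 6 list genes rose and 4 fell at 50 nM, and 5 rose and 3 fell at 500 nM. The number that fell was 4 at 50 nM without ABBV-744 50 nM replicate 2, and 2 or 3 at 500 nM without ABBV-744 500 nM replicate 3 or IFNg with ABBV-744 500 nM replicate 2. The interaction with ABBV-744 at 50 nM called 6 of 30 list genes higher and 9 lower, beside 25% and 26.5% of all genes. Among those list genes were TNFSF10 (1.77), BIRC2, an inhibitor of apoptosis protein (1.51), and GSDMB (−1.51). At 500 nM it called 6 of 29 higher and 5 lower, beside 18.5% and 15% of all genes, with GSDMB at −1.90. After that correction these were 2 higher and 1 lower at 50 nM and 1 higher and 3 lower at 500 nM, where 3 higher and 6 lower were called without ABBV-744 500 nM replicate 2 and 5 and 2 without its replicate 3. With ABBV-075 it called none of 29 by edgeR or DESeq2, 5 having an unadjusted p under 0.05, where edgeR called 0.0173% of all genes in each direction.

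ABBV-075 over DMSO raised 5 of 27 other list genes and lowered 11, where 19.8% of all genes were called higher and 19.6% lower. TNFSF10 fell by 2.15 on the log2 scale (SE 0.38), with 14 to 26 counts per library in DMSO and only 3 to 6 with ABBV-075. PYCARD, the adaptor that joins inflammasome sensors to caspase-1, fell by 1.70 (SE 0.34). No p is given for it, since it had at most 26 counts in any library and so few with ABBV-075. Without DMSO replicate 2 the number called dropped from 16 to 10, and the number raised was 3 without DMSO replicate 1 or ABBV-075 replicate 2. Over IFNg, ABBV-075 raised 5 of 29 and lowered 14, beside 28.2% and 28.4% of all genes. GSDMB was at −1.72 there (SE 0.33), given with no p because of its low counts. ABBV-744 over DMSO lowered 10.1% of all genes and raised 8.81% at 50 nM, and lowered 7.8% and raised 7.48% at 500 nM. Of the list genes it lowered 5 of 27 at 50 nM and 3 of 27 at 500 nM and raised none. At 50 nM the number lowered was 0 without DMSO replicate 2 or 3, 1 without ABBV-744 50 nM replicate 3, 3 without its replicate 2 and 4, with 2 raised, without its replicate 1, and at 500 nM it was 1 without ABBV-744 500 nM replicate 3. Over IFNg it raised 6 of 30 and lowered 9 at 50 nM, beside 27.4% and 24.3% of all genes. At 500 nM it raised 5 of 28 and lowered 9, beside 22.9% and 22.8% of all genes. The GC correction gave 4 raised and 3 lowered at 50 nM and 4 of each at 500 nM, and DESeq2 gave 6 and 4, then 5 and 3. Without IFNg replicate 1, 6 rose and 5 fell at 50 nM. ABBV-075 against ABBV-744 at 50 nM raised 6 of 25 and lowered 9 without IFNg, beside 21.4% and 19.4% of all genes. With IFNg it raised 3 of 30 and lowered 9, beside 16.7% and 17% of all genes. Without IFNg the number lowered was 5 with the GC correction, 3 with DESeq2 and 2 without ABBV-075 replicate 2, 3 to 5 without ABBV-075 replicate 1 or any 1 of the ABBV-744 50 nM libraries, and with IFNg it was 6, and 1 raised, without replicate 2 or 3 of IFNg with ABBV-075. The step from 50 to 500 nM of ABBV-744 called none of 25 without IFNg and none of 30 with it, by edgeR or DESeq2, and 2 in each had an unadjusted p under 0.05. Of all genes edgeR called 0% higher and 0.0274% lower without IFNg, and 1.41% higher and 0.29% lower with it.

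**Figure D5:**
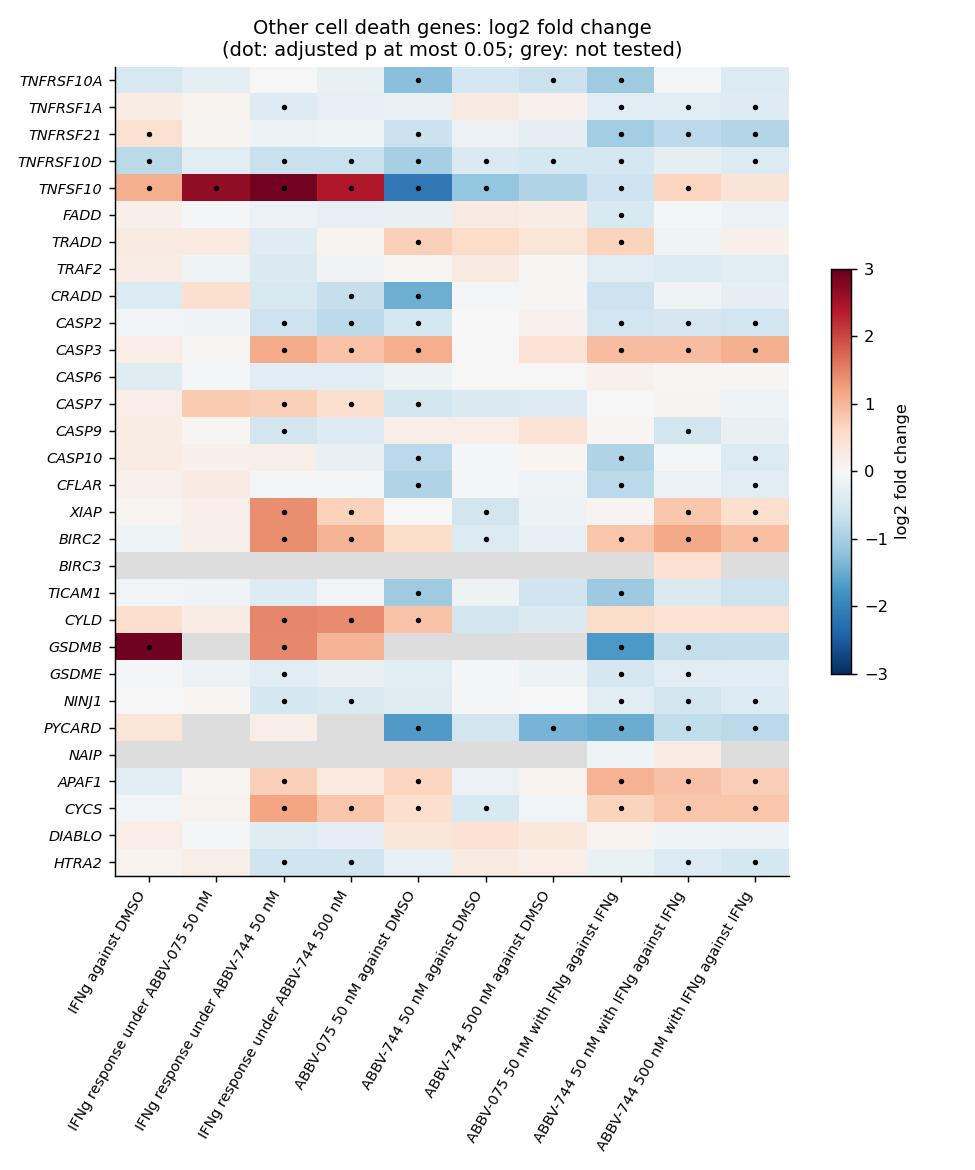
Log2 fold change of the 30 other cell death genes that could be tested, in 10 contrasts, with red higher, blue lower, grey not tested and a dot for an adjusted p at most 0.05. TNFSF10 is higher with IFNg in each of the 4 IFNg columns, from 1.10 to 2.90, and GSDMB reaches 2.92 for IFNg over DMSO.

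Across the 24 libraries, which share treatments, depth and base composition within groups, the level of MLKL ran most like that of CASP4 among the other members (Pearson r of log2 CPM 0.85), then CASP8 (0.76), FAS and CASP1 (0.71 each). It ran least like RIPK1 (−0.35) and TNFRSF10B (−0.21). Among 11676 genes expressed, the 5 most like MLKL were SERPINA7 (0.92), USP18 (0.92), ATP9A (0.92), SULT2A1 (0.90) and ZC3H7B (0.90). SERPINA7 encodes thyroxine-binding globulin and SULT2A1 a sulfotransferase of the liver, and USP18 removes the interferon-induced modifier ISG15. CASP1 was closest to TRIM22 (0.96) and GBP5 (0.95), both interferon-stimulated genes, and CASP4 to SEC16B (0.98) and RCN1 (0.97). Among the nearest genes to the others were SSR3 and MTTP for FAS (0.91 and 0.89), SQSTM1 and MAVS for TNFRSF10B (0.86 each), USP53 for RIPK1 (0.87), LOC115110 and SPTLC3 for CASP8 (0.88 each), and HELZ2 and CLCN7 for GSDMD (0.87 and 0.86). These correlations describe the libraries and carry no test.

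Compared per kilobase of canonical transcript, which allows levels to be set between genes, CASP4 was the highest of the 8 genes in DMSO, at 26.0 CPM per kilobase, followed by TNFRSF10B at 18.7 and CASP8 at 13.2. RIPK1 was at 6.63, FAS at 4.31, GSDMD at 3.80, MLKL at 2.89 and CASP1 at 0.248. With IFNg, MLKL was at 6.76 and CASP1 at 4.10, and with ABBV-075 MLKL was at 0.304.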

How the data were processed

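RNA of 24 HepG2 libraries was depleted of ribosomal RNA and made into directional libraries, sequenced on an Illumina HiSeq2500. Per the submitters' processing notes, CASAVA 1.8.2, Trimmomatic 0.33, STAR 2.7.1 and DESeq2 were used with the hg38 build. The deposited files hold whole-number counts of reads per gene, not normalized, 1 file per library, in the layout of STAR's gene counts. The annotation is not given in the sources used here. Each file has counts of both strands together and of each strand, and the column of the strand that took 98.3% to 98.5% of the stranded reads was used. Reads that matched several places (56% to 69.4%) or no gene were left out.

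Groups were taken from the labels. Counts were filtered (filterByExpr), scaled (TMM) and tested with the quasi-likelihood test of edgeR 4.0.16 in R 4.3.3, on the libraries compared only, with Benjamini-Hochberg adjustment over all genes tested and calls at an adjusted p of at most 0.05. CPM values use TMM over the 24 libraries, with a prior count of 2 where on the log2 scale. Log2 fold changes carry the SE or 95% interval of the fit. Ratios of summed counts have exact conditional intervals for CASP1, except for IFNg over DMSO, and none for MLKL. The GC correction subtracts a smooth curve of GC content (span 0.3) fitted in each library, known for 92.9% of genes. The members and lists were chosen with earlier results of these data known. All 8 members are named, other list genes where called with a log2 fold change of at least 1.5 in size (GSDMB, TNFSF10, PYCARD and BIRC2) plus, in the text on IFNg over DMSO, TNFRSF21 and TNFRSF10D, named after their values were seen so that all 4 calls are given, and the genes most like each member, of which 1 is not reported here. RIPK3, ZBP1, CASP5 and the inflammasome genes of the list were also named after their values were seen. The DFNA5 symbol of the files was read as GSDME. Alternatives were RLE scaling, library size only, no filter, DESeq2 1.42.0, all 24 libraries in 1 fit, a replicate block, both strands, the GC correction and leaving out each library. Scripts were tested on simulated data.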

Additional observations from a re-analysis of the deposited data

Results flagged for a closer look

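The IFNg response of 2 members differed with ABBV-744 at 50 nM from that over DMSO by the interaction test of edgeR. FAS had a difference of 0.93 on the log2 scale (adjusted p = 0.00163) and TNFRSF10B one of −0.48 (adjusted p = 0.0113). Of the other cell death genes past 1.5 in size, TNFSF10 (1.77, adjusted p = 0.000474), BIRC2 (1.51, adjusted p = 2.39e-08) and GSDMB (−1.51) were called in that test at 50 nM, and GSDMB at 500 nM (−1.90). No p is given for GSDMB, which had at most 28 counts in any library. In those interactions 51.6% of all genes tested were called at 50 nM and 33.5% at 500 nM. The median difference in response was 1.16 for genes with a transcript GC content under 40% and −0.60 for genes over 60% at 50 nM. With the GC correction FAS had −0.16 and TNFRSF10B −0.21.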

How the results depend on the processing

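Values of members kept their direction under every alternative where they were called, except with the GC correction, under which FAS turned to −0.13 in ABBV-744 50 nM with IFNg over IFNg, to −0.0038 in the IFNg response under ABBV-744 500 nM and to −0.16 in the ABBV-744 50 nM interaction, and CASP8 to −0.0792 in the IFNg response under ABBV-744 50 nM. Counting on both strands changed no call. For ABBV-744 50 nM over DMSO the 1 member called became 0 with library size only, DESeq2, all 24 libraries, the replicate block or the GC correction. For ABBV-744 500 nM over DMSO the 2 called became 0 with DESeq2 and 1 with the replicate block, and over IFNg the 2 became 1 with RLE, library size only, no filter or all 24 libraries and 0 with DESeq2. The 1 call of the IFNg response under ABBV-075 became 2 with all 24 libraries or the GC correction. The 2 calls of ABBV-075 against ABBV-744 without IFNg became 1 with DESeq2 and 5 with all 24 libraries or the GC correction. The 1 call of ABBV-744 500 against 50 nM with IFNg became 0 with all 24 libraries and with DESeq2, where 2 of the 8 members had an adjusted p, and the 2 of the ABBV-744 50 nM interaction became 1 with the GC correction. DESeq2 lost 11 calls of members, those of TNFRSF10B for ABBV-744 50 nM and FAS and CASP4 for 500 nM over DMSO, CASP8 and GSDMD for ABBV-075 and RIPK1 and CASP4 for ABBV-744 500 nM over IFNg, FAS and GSDMD in the IFNg response under ABBV-744 500 nM, and FAS without and GSDMD with IFNg between the compounds. The cause was not tested. Leaving out 1 library gave 0 to 2 members called for each dose of ABBV-744 over DMSO, 0 to 2 for 500 nM over IFNg, 1 to 2 for the IFNg response under ABBV-075 and for ABBV-075 against ABBV-744 without IFNg, 0 to 1 for 500 against 50 nM with IFNg, 0 to 2 for the 500 nM interaction, and 10 to 20 other list genes for ABBV-075 over DMSO. Whether replicate numbers pair the libraries is not known. In no comparison did all 3 pairs correlate above 0.1. The highest pair reached 0.39 for ABBV-075 against ABBV-744 without IFNg, 0.38 for ABBV-744 500 against 50 nM without IFNg and 0.35 for the IFNg response under ABBV-075. The replicate block changed no other call of a member.

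Counts over all genes moved by more than 1.5 times as follows. With DESeq2 they went from 2102 to 1146 (ABBV-744 50 nM over DMSO), 1700 to 986 (500 nM over DMSO), 187 to 103 (500 against 50 nM with IFNg), 3 to 5 (without IFNg) and 4 to 12 (ABBV-075 interaction). The GC correction gave 1201 of 2102, 3666 in place of 5766 (ABBV-744 50 nM over IFNg), 3382 of 6675 and 2968 of 4498 (IFNg response under ABBV-744 50 and 500 nM), 2146 of 5905 and 1790 of 3827 (their interactions), 101 of 187, and, upwards, 237 from 115 (IFNg response under ABBV-075), 24 from 3 and 26 from 4. No filter gave 241 from 115, 13 from 3 and 45 from 4, all 24 libraries 351 from 115, 9 from 3 and 2 from 187, and the replicate block 212 from 115 and 320 from 3. Leaving out 1 library gave as few as 708 of 2102 (DMSO replicate 2), 793 of 1700 (DMSO replicate 2), 2651 of 4481 for ABBV-075 against ABBV-744 without IFNg (ABBV-075 replicate 2), 64 to 473 from 187 (IFNg with ABBV-744 500 nM replicates 2 and 1), 0 to 10 from 3 (ABBV-744 50 nM replicates 3 and 2), and up to 299 from 115 and 200 from 4 (ABBV-075 replicate 1 in both). At these depths a gene near 1 CPM, such as CASP1 without IFNg or MLKL with ABBV-075, has too few counts to show a change of moderate size.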
